A study of Mus musculus with 6 samples.

Results

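Broad single-gene promoter domains are stretches of 1000 bp or more over which H3K9ac was called as one unbroken interval at the promoter of a single protein-coding gene. They were chosen by width: intervals annotated as promoter, with 1 gene symbol and at least 1 protein-coding RefSeq transcript, were merged over the 6 deposited peak lists wherever they shared 1 bp, and a merged region was kept when any library held an interval of 1000 bp or more there. This gave 942 domains of 925 genes, out of 10454 single-gene coding promoter regions of 6539 genes. The libraries were H3K9ac chromatin immunoprecipitations from the epithelium of the distal intestine of C57BL/6 mice, 2 libraries in each of 3 housing groups. Germ-free mice carried no microbes, E. coli-monoassociated mice carried E. coli alone (their libraries are the E. coli libraries), and conventional mice were housed conventionally. No transgene or knockout was listed for any group. Age, sex and the number of mice behind a library are not stated in the sources used, so replicate spread may be purely technical. A share of cells carrying the mark and the amount of mark per cell cannot be told apart in such bulk libraries.

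H3K9ac is the acetylation of a lysine in the tail of histone H3. Acetyltransferases place it and deacetylases remove it, and it is found mainly on the nucleosomes that flank the start sites of active genes. In many cell types the widest promoter domains of active marks are known to lie at genes that define the cell. In the gut epithelium the genes of that kind encode homeobox, GATA and Krüppel-like transcription factors, the actin core of the brush border and the junctions that seal the cell layer.

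The promoters of 6 domains are printed to show how different the sequences in front of a broad domain were. Each line holds the 250 bases before the RefSeq start site on GRCm38.p6 (the mm10 build), written 5′ to 3′ on the gene's strand, and capitals mark every CpG. Cdx2 was the domain of 1000 bp or more in every library with the largest width, Vil1, Src and Clec2h were among the few that were this wide in an E. coli-monoassociated library, and Zfp36 and Klf6 were this wide in both libraries of the other 2 groups. These 6 were picked after their widths were seen.

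Cdx2: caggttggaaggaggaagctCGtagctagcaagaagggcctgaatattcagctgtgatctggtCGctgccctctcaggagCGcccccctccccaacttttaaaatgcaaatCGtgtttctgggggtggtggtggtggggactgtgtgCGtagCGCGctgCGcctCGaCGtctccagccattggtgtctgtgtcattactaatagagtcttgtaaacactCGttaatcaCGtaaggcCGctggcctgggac

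Vil1: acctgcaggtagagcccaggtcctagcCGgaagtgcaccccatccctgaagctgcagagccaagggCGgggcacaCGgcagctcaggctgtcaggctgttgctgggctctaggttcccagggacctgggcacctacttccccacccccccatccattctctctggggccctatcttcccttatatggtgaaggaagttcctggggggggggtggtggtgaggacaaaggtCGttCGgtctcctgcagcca

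Zfp36: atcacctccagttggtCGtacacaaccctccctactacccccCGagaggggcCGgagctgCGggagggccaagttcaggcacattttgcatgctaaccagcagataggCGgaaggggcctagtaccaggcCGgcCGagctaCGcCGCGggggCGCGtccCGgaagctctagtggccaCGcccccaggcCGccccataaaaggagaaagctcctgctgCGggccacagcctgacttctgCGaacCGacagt

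Klf6: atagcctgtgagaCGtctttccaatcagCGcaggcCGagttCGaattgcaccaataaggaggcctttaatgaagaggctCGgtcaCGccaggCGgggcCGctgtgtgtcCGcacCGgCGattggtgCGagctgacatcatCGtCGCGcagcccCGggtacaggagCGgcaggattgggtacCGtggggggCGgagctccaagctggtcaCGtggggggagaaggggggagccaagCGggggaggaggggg

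Src: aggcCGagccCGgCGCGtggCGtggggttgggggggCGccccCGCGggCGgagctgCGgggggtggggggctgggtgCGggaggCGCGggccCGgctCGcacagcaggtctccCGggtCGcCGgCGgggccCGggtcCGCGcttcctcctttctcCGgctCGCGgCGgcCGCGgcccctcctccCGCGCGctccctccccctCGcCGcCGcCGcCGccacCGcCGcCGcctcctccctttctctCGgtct

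Clec2h: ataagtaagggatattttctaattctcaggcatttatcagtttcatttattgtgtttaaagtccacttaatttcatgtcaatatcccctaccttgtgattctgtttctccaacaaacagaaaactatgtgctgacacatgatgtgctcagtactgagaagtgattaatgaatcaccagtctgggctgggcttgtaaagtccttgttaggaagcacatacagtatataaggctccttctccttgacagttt

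The Cdx2 bases lie at chr5:147307250-147307499 on the minus strand and hold 13 CpG. Vil1 (chr1:74409134-74409383, plus strand) holds 5 CpG, and Zfp36 (chr7:28379229-28379478, minus strand) holds 18. Klf6 (chr13:5861239-5861488, plus strand) holds 21. Src (chr2:157424043-157424292, plus strand) is the richest of these with 40, and Clec2h (chr6:128662135-128662384, plus strand) has none. Broad domains were thus called both behind a CpG-dense and behind a CpG-free stretch. In the 300-base windows that these stretches come from, which reach 50 bases past the start, the GC box GGGCGG was found at Vil1, Zfp36, Klf6 and Src. It was in 35.7% of the 32851 promoters of the RefSeq table. The ETS core CCGGAAGT was found at Vil1 and in 3.89% of all promoters. The AP-1 site TGAGTCA was found at Clec2h and in 5.20% of all. The E-box CACGTG was found at Klf6, against 7.15% of all. CCAAT was found at Cdx2 and Klf6 and in 37.4% of all. TATAAA (13.6% of all) and the CRE TGACGTCA (1.79% of all) were in none of the 6. Both strands were searched, and none of these motifs contains another. A promoter window within 500 bp of the listed start was found for 726 of the 942 domains, or 77.1%, which is too few for a comparison of sequence features over the whole set.

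The lists differed strongly in length, and the 2 longest held by far the most domains. Among the shorter lists the number of wide promoter intervals did not follow length. Germ-free replicates 1 and 2 held 4428 and 17092 nuclear intervals, E. coli-monoassociated replicates 1986 and 868, and conventional replicates 3113 and 15348. Single-gene coding promoter intervals of 1000 bp or more numbered 20 of 2248 and 636 of 7849 in the germ-free lists, 5 of 832 and 7 of 376 in the E. coli lists, and 28 of 1892 and 616 of 8232 in the conventional lists. The second germ-free and second conventional lists therefore supplied nearly all of the widths that chose the domains, and each of the 942 domains was 1000 bp or wider in at least one of these 2 lists. The labels give the same sequencing depth for every library. The number of mapped reads per library is not stated in the sources used, so its part in these widths was not tested. The lists hold no read counts over an interval, and no counting error can be given for a width.

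Presence was read from intervals of the same kind at any width, that is, promoter intervals of a single protein-coding gene. Such an interval lay in 602 and 931 of the 942 domains in the germ-free libraries, 368 and 216 in the E. coli libraries, and 634 and 925 in the conventional libraries. In percent these were 63.9 and 98.8, 39.1 and 22.9, and 67.3 and 98.2. With deposited intervals of every annotation counted, the numbers of domains were 645 and 935, 403 and 239, and 663 and 934. Over all 10454 regions the shares with a single-gene promoter interval were 18.8 and 68.5%, 7.1 and 3.21%, and 15.6 and 73.3%. The domain share was the larger in every library, which the choice by width favours, and nothing is read from it. The domains held between 18.9 and 33.1% of the bases of all nuclear intervals of a list.

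**Figure D1:**
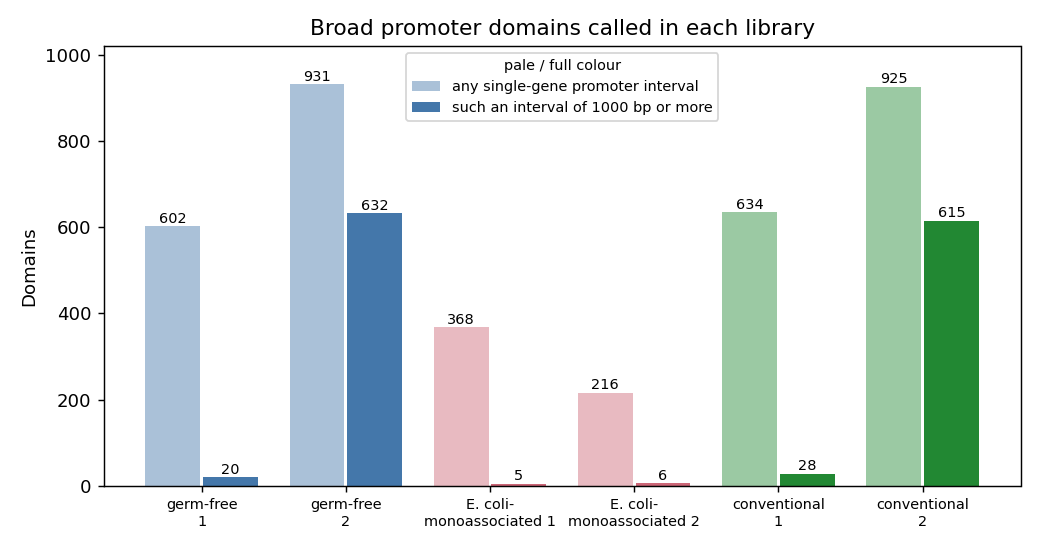
Number of the broad domains with any promoter interval of a single protein-coding gene (pale bars) and with such an interval of 1000 bp or more (full bars) in each library, coloured by housing group. The second germ-free and second conventional libraries stand at 632 and 615 domains of 1000 bp or more, and the other 4 libraries at 5 to 28.

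Within a library, domains were by construction wider than other promoter regions. Median widths of the domains called were 315.5 and 1144 bp in the germ-free libraries, 253 and 226 bp in the E. coli libraries, and 326.5 and 1113 bp in the conventional libraries. The other single-gene promoter regions had medians of 195.5 and 286, 172.5 and 184.5, and 203 and 294 bp. The deposited fold enrichment, the peak height over the local background, had medians of 6.06 and 8.87, 5.92 and 5.70, and 6.37 and 9.41 in the domains. In the other regions it was 5.19 and 5.70, 5.33 and 5.70, and 5.66 and 5.79. In the second E. coli-monoassociated library the 2 medians of fold enrichment were alike. The largest width of a domain over the 6 libraries had a median of 1313.5 bp and quartiles of 1129 and 1650.25 bp. It reached 2000 bp in 123 domains, 3000 bp in 37 and 4000 bp in 12. At the threshold, Zbtb34 at 1000 bp and Arhgdia at 1002 bp were just inside, while Brpf3 at 999 bp, a second Baz2a region at 998 bp and Ehd1 at 998 bp were just outside.

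Width by housing group was counted with no test, because width chose the domains. An interval of 1000 bp or more was found in germ-free libraries alone at 326 domains, in conventional libraries alone at 309, in both of these groups at 299, and in all 3 groups at 8. None was this wide in E. coli-monoassociated libraries alone. Most domains were this wide in a single library: 633 in 1 library, 272 in 2, 25 in 3, 8 in 4, 2 in 5 and 2 in 6. A single-gene promoter interval of any width was found in all 6 libraries at 140 domains, in 5 at 193, in 4 at 225, in 3 at 225, in 2 at 137 and in 1 at 22. Of all 10454 regions, 1.53% had an interval in all 6 libraries, and 140 of those 160 regions were broad domains. The choice by width favours this overlap, and nothing is read from it.

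The few domains that were broad in E. coli-monoassociated libraries were also broad elsewhere. Cdx2, the homeobox factor that gives the intestinal epithelium its identity, spanned 2436 and 6067 bp in the germ-free replicates 1 and 2, 2877 and 2163 bp in the E. coli-monoassociated replicates, and 3205 and 6521 bp in the conventional replicates. The fold enrichment at Cdx2 was 13.3 and 14.6, 14.8 and 9.98, and 14.2 and 22.4 in the same order. Among single-gene promoter intervals it ranked first or second by width in 4 of the 6 libraries and never below the fourth. All 6 widths at Cdx2 were above 2000 bp. Both conventional widths were above both E. coli widths, and the germ-free widths overlapped with those of both other groups.

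Sfi1, which encodes a centrin-binding centrosome protein, spanned 3297 and 3293, 3520 and 1894, and 3540 and 3613 bp. Its intervals were not limited to the promoter: each list held between 13 and 34 intervals assigned to the 61613 bp gene, of 40.2 to 53.5 kb in sum, with fold enrichments of up to 32.3. In the second E. coli-monoassociated list they summed to 51.6 kb, of 294 kb in the whole list. The widths at Sfi1 therefore do not describe a domain of the promoter alone, and the reason was not tested. Clec2h, a member of the C-type lectin family, spanned 2980 and 773, 2730 and 2587, and 2735 and 2521 bp, so the second germ-free library was the one low value. Vil1 encodes villin, the actin-bundling protein of the microvillus. It spanned 1740 and 1028, 716 and 1028, and 1191 and 2571 bp, and was below 1000 bp in the first E. coli-monoassociated library alone. Klf3, a Krüppel-like zinc-finger factor, spanned 500 and 4922, 321 and 1441, and 1394 and 2540 bp, and the groups overlapped.

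The other 3 domains broad in an E. coli-monoassociated library were Suv420h1, Cldn3 and Src. Suv420h1, a histone H4 methyltransferase, spanned 812 and 1737, 1111 and 612, and 1286 and 1880 bp. Cldn3, a claudin of the tight junction, spanned 578 and 3195 bp germ-free, 1198 bp in the first E. coli-monoassociated library with no interval in the second, and 812 and 3673 bp conventional. The tyrosine kinase gene Src spanned 900 and 2613, 781 and 1297, and 861 and 2268 bp. At all 3 the second germ-free and second conventional libraries were the widest.

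**Figure D2:**
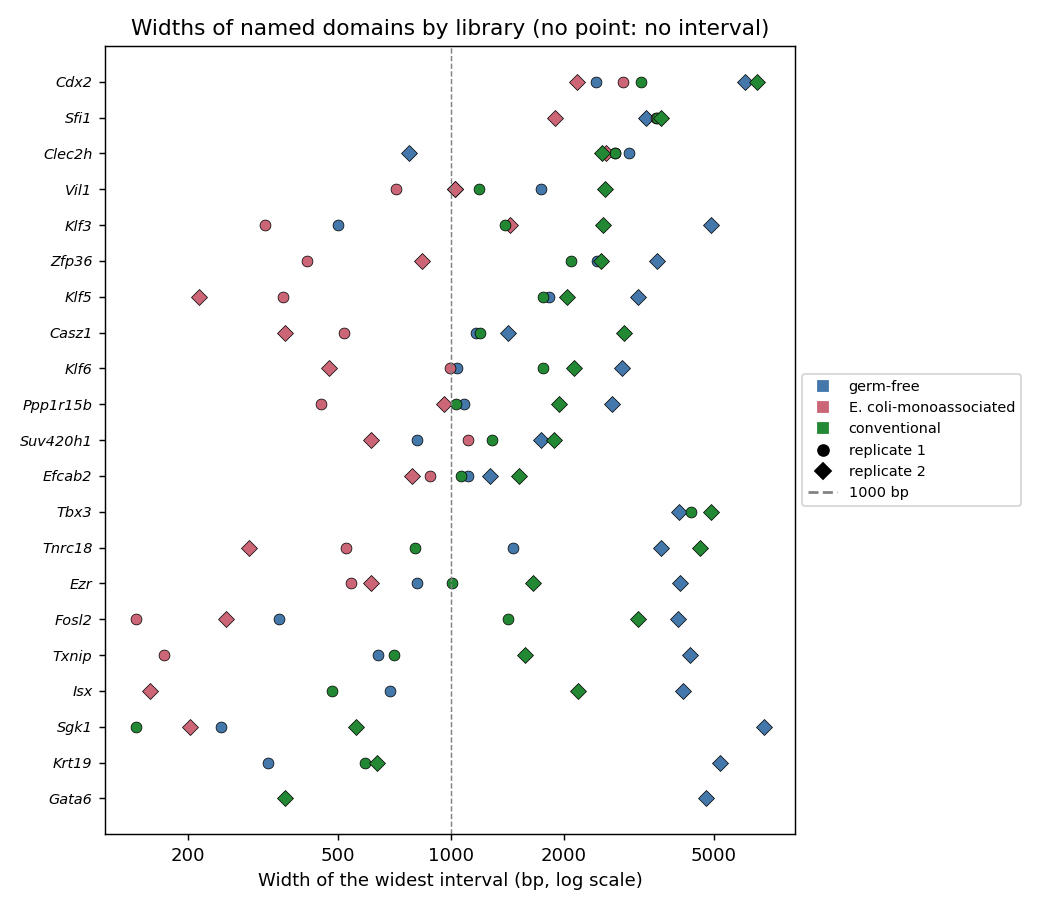
Width of the widest interval in each library at 21 of the named domains, taken from the widest and those broad in the most libraries, on a log axis, with colour for housing group and shape for replicate. Cdx2 and Sfi1 lie right of the 1000 bp line in all 6 libraries, while Sgk1, Krt19 and Gata6 do so in the second germ-free library alone.

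The other 6 domains broad in 4 libraries were broad in both germ-free and both conventional libraries. Zfp36 encodes tristetraprolin, which speeds the decay of inflammatory mRNAs. It spanned 2442 and 3531 bp germ-free, 414 and 837 bp E. coli-monoassociated, and 2081 and 2512 bp conventional. Klf5, a factor of dividing crypt cells, spanned 1820 and 3151, 357 and 214, and 1757 and 2032 bp. Klf6, of the same family, spanned 1039 and 2860, 997 and 473, and 1762 and 2128 bp. At these 3 genes both E. coli-monoassociated widths lay below all 4 others. At all 6 domains this order was fixed in advance, since only the 4 other libraries reached 1000 bp there. Nothing is read from it. The same order was seen at Casz1, a zinc-finger factor gene (1164 and 1415, 519 and 363, 1197 and 2890 bp), at Efcab2 (1109 and 1270, 880 and 787, 1064 and 1514 bp) and at Ppp1r15b, which encodes a subunit that directs a phosphatase to a translation initiation factor (1084 and 2676, 452 and 958, 1035 and 1940 bp).

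With a missing interval counted as a width of 0, both germ-free widths were above both E. coli-monoassociated widths at 476 of the 942 domains, against 14.2% of all regions. Both conventional widths were above both E. coli-monoassociated widths at 537, against 13% of all regions. The reverse orders were found at 1 domain for germ-free (0.0478% of all regions), Adap1, and at none for conventional (0.00957% of all regions). The E. coli lists were also the 2 shortest, and list length cannot be told apart from housing here. Between germ-free and conventional the orders were few. Conventional was above germ-free at 36 domains (2% of all regions) and germ-free above conventional at 12 (1.55% of all regions). Each domain reached 1000 bp in the second germ-free or second conventional library, which favours the orders above the E. coli-monoassociated libraries. Nothing is read from any of these counts, since width chose the domains.

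Presence was counted in the same way. An interval was found in both germ-free libraries at 599 domains, and at 248 of these neither E. coli-monoassociated library held one, against 66.1% of all regions called in both germ-free libraries. For conventional the counts were 267 of 633, against 62.1%. These shares of the domains, 41.4 and 42.2%, stand beside the background with nothing read from them, since the rule used presence and width. Few domains were missing from a whole group in the other orders. None of the 599 lacked both conventional intervals (4.36% of all regions did), and none of the 156 domains called in both E. coli-monoassociated libraries lacked both germ-free (1.04%) or both conventional intervals (0.521%). Of the 633 in both conventional libraries, 1 lacked both germ-free intervals (5.9% of all regions did). This was Slc6a8, the creatine transporter gene, at 146 and 1029 bp.

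The widest domains that both germ-free libraries held and both E. coli libraries lacked were Krt19, Bahcc1, Degs2, Mttp, Tspan8 and Pmaip1. Krt19, a keratin of simple epithelia, spanned 326 and 5189 bp germ-free and 591 and 637 bp conventional. Mttp, which loads lipid onto apolipoprotein B, spanned 560 and 3261 bp germ-free and 834 bp in the second conventional library alone. Degs2, a sphingolipid desaturase and hydroxylase gene, spanned 206 and 3539 bp germ-free and 681 bp in the second conventional library alone. At Krt19, Mttp and Degs2 the wide value came from the second germ-free library, while at Bahcc1 the second conventional library was the widest with 3545 bp, against 1121 bp in the second germ-free library. Tbx3, Krt19, Bahcc1, Nfkbiz, Stk17b and Sepp1 were the widest with both conventional and neither E. coli-monoassociated interval. Tbx3, a T-box factor, had no interval in the first germ-free library and 4049 bp in the second, against 4339 and 4930 bp conventional. Sepp1, the gene of the selenium carrier selenoprotein P, had 2628 bp in the second germ-free library alone and 1226 and 2866 bp conventional. Both conventional libraries were wide at these 2 genes. Nfkbiz, an inducible nuclear inhibitor of NF-κB, had 3389 bp in the second germ-free library alone and 409 and 558 bp conventional.

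The 2 long lists were compared because they were of like length. The germ-free one came without summit positions and pileup, and whether both were called in the same way is not stated in the sources used. An interval was called in both at 914 domains, with a median log2 ratio of germ-free to conventional width of 0.10. Width was 1000 bp or more in both at 305 domains, in germ-free alone at 327 and in conventional alone at 310. Of the domains broad in the second germ-free library, 48.3% were broad in the second conventional library, and 49.6% the other way. Germ-free was at least 2 times as wide at 163 domains and conventional at 167, against 13.5 and 16% of all 4609 regions called in both. Nothing is read from these counts, since the threshold at 1000 bp was set on the same widths.

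**Figure D3:**
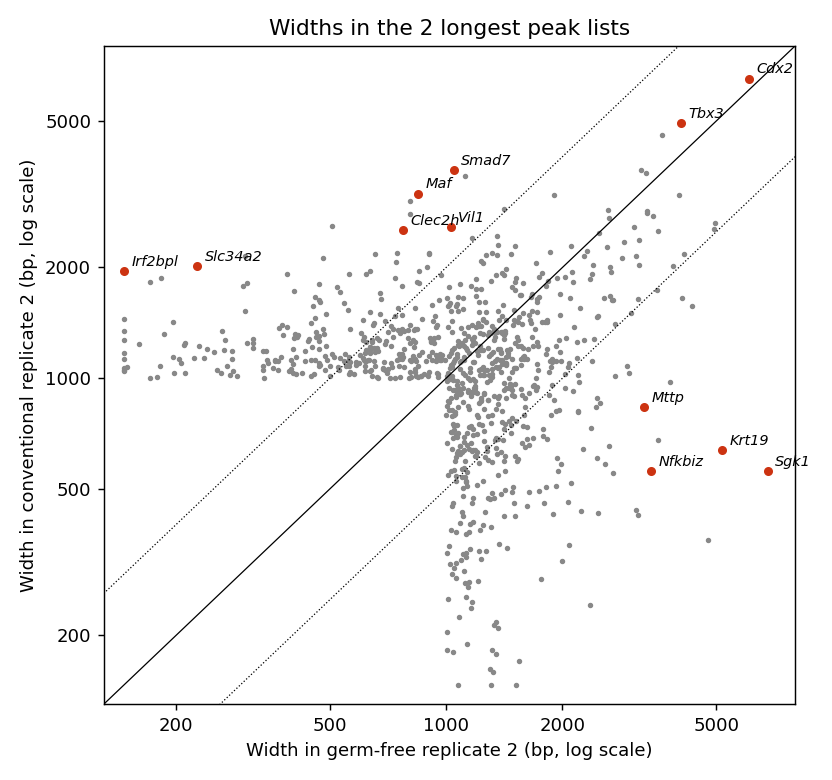
Width of each domain in the second germ-free library against the second conventional library, both on log axes, with the solid line at equal widths and dotted lines at 2-fold differences. Every point is 1000 bp or wider in at least one of these 2 libraries, Cdx2 and Tbx3 lie near the solid line, and Sgk1, Krt19 and Nfkbiz lie far toward germ-free.

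Sgk1, a stress- and hormone-induced kinase gene, showed the largest width of all domains, 6794 bp in the second germ-free library. It had 245 bp in the first germ-free library, no interval and 202 bp in the E. coli libraries, and 146 and 559 bp in the conventional libraries. The germ-free replicates thus differed more from each other than the first one did from the conventional libraries. Gata6, a transcription factor of the gut epithelium, had 2 domains: one ended 5 bp past the start site and spanned 4756 bp in the second germ-free library and 363 bp in the second conventional library. Its other domain began 112 bp past the start and spanned 205 and 3803 bp germ-free, 401 bp in the second E. coli-monoassociated library, and 673 and 978 bp conventional. Eps8l3 spanned 355 and 3143 bp germ-free, 146 and 263 bp E. coli-monoassociated, and 299 and 424 bp conventional. On the other side, Smad7, an inhibitor of TGF-β signalling, spanned 244 and 1046 bp germ-free, 146 and 350 bp E. coli-monoassociated, and 1928 and 3682 bp conventional. Both conventional widths lay above all 4 others at Smad7. Actb, the β-actin gene, also had 2 domains. At the one downstream of the start the widths were 478 and 807, 428 and 396, and 902 and 2801 bp, again with both conventional values highest. The one upstream of the start went the other way, with 1071 bp in the second germ-free library, 635 bp in the second conventional library and no other interval. Actb and the Gata6 domain downstream of the start were chosen after their values were seen.

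The replicates 1, which did not supply the 2-fold differences, were read beside them. Of the 163 domains at least 2 times wider in the second germ-free library, the first germ-free library was wider than the first conventional at 53, narrower at 49, and neither was called at 59. Of the 167 on the other side, the first conventional library was wider at 77 and the first germ-free at 53. Over all 942 domains the first conventional library was wider at 412 and the first germ-free at 342. At the 584 domains less than 2-fold apart, the first conventional library was wider at 283 and the first germ-free at 234. No conclusion is drawn from these counts, since width chose the domains. Both conventional widths exceeded all 4 others at 34 of the 942 domains, against 1.93% of all regions, among them Tbx3, Smad7, Sfi1, Maf, Clec2d, Actb and Slc34a2, and both germ-free widths did at 12, against 1.53% of all regions, among them Baz2b, F11r, Dido1 and Pcbp1. These names were chosen after their values were seen, and nothing is read from the counts, since width chose the domains. At Sfi1 the lower conventional width, 3540 bp, was close to the 3520 bp of the first E. coli-monoassociated library. F11r, a junctional adhesion molecule, spanned 570 and 2479 bp germ-free and 431 bp in the second conventional library alone.

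Libraries with short lists gave domains that were broad in the long ones too. Of 20 domains broad in the first germ-free library, 19 were broad in the second and all 20 in the second conventional library. Of 28 broad in the first conventional library, 25 were broad in the second germ-free library. All 5 and 6 domains broad in the E. coli-monoassociated libraries were broad in the second conventional library, and 4 and 5 of them in the second germ-free library. In the 140 domains called in all libraries, median widths were 514.5 and 1395 bp germ-free, 355.5 and 250 bp E. coli-monoassociated, and 593 and 1438.5 bp conventional. The order of the libraries was that of the whole set, apart from the second conventional library, which was here the widest. Anpep, the aminopeptidase N gene of the brush border, and Clec2h were the 2 domains that were widest outside the 2 long lists. Anpep spanned 281 and 186, 947 and 249, and 1415 and 1321 bp. It was named, as Adap1 was, after its values were seen.

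The position of the intervals around the start site was set in part by the rule, which took intervals annotated as promoter and selected on width, so it is described, and only its difference between the groups was tested. The widest interval of a domain began at a median of 7 bp before the listed start and ended 1271.5 bp after it. The start lay inside it at 448 domains, the interval lay wholly downstream at 462 and wholly upstream at 32. The share of called domains covered was highest 350 to 600 bp downstream of the start in every library. The mean share of an interval's bases that lay downstream was 89.8 and 86.7% in the germ-free libraries, 89.6 and 86.6% in the E. coli libraries, and 89.3 and 85.7% in the conventional libraries. By group it was 88.2% ± 2.18 (SD, n = 2), 88.1% ± 2.11 and 87.5% ± 2.55. The difference from germ-free was -0.0995 percentage points for E. coli-monoassociated and -0.696 for conventional, each with p = 0.667 by a two-sided exact permutation test over libraries, and the same value adjusted over the 2 comparisons. The smallest p that this test allows is 0.333. Over the 3 groups the exact permutation test gave p = 0.667, where the smallest possible is 0.0667. Every domain was also chosen through the second germ-free or second conventional library. The tests therefore cannot decide whether position differed between the groups. The groups differed by less than their replicates did, and the sign of the first difference changed with several settings. In the other single-gene regions the downstream share was 79.6 and 71.5, 84.6 and 80.5, and 86.1 and 75.9%, below that of the domains in each library, with nothing read from this for the same reason.

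**Figure D4:**
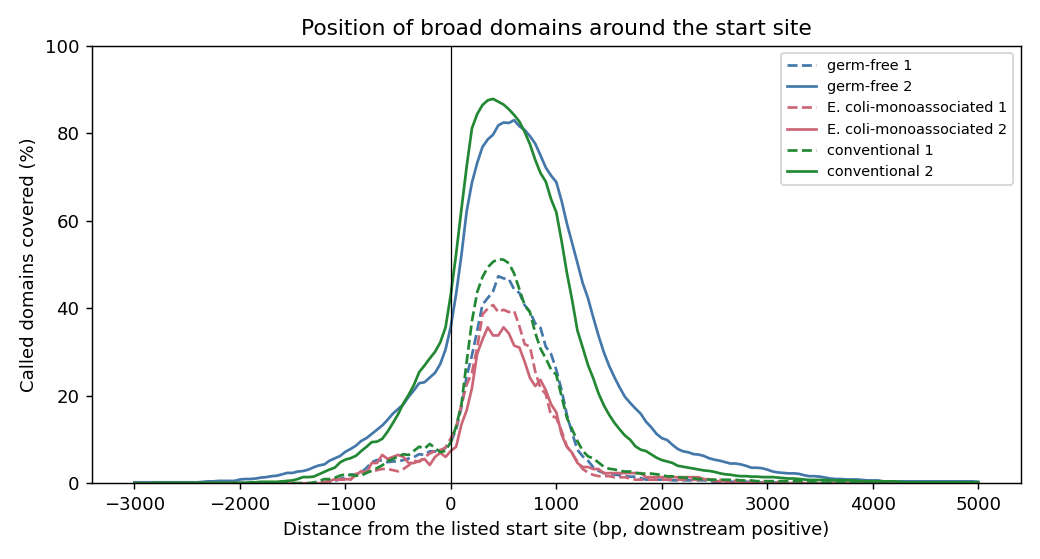
Share of the domains called in a library whose widest interval covers each position, against the distance from the listed start site in bp. All 6 curves peak 350 to 600 bp downstream of the start, at 83.0 and 87.9% in the 2 long lists and at 35.6 to 51.3% in the others.

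The cells carried the promoter marks of epithelium. Of 8 epithelial marker genes, 7 and 8 had a promoter interval in the germ-free libraries, 6 and 4 in the E. coli libraries, and 7 and 8 in the conventional libraries, and 6 held a broad domain: Cdx2, Epcam, Vil1, Krt20, Cdx1 and Cdh1. Of 7 goblet cell markers, 0 and 5, 0 and 0, and 1 and 2 were called, none broad, and the part of goblet cells in the results was not tested. None of the 5 Paneth, 6 enteroendocrine, 4 tuft, 13 immune and 14 stromal, endothelial, muscle and nerve markers had a single-gene promoter interval in any library.

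Gene identity was described with 19 lists of genes. Over all 6539 genes with a single-gene promoter region, 14.1% held a broad domain. Most lists lay above this share, also those of general functions. Translation and ribosomal proteins stood at 20.0%, chaperones and ubiquitin at 20.6%, and splicing and RNA processing at 32.4%. Only nuclear receptors, at 11.1%, and mitochondrial respiration and carriers, at 0, lay below it. A share above 14.1% therefore does not set a list apart. The shares of the lists are given beside this figure with no test, as the lists were drawn up with results of these data known. Junction and barrier genes had a broad domain at 23 of 36 marked genes, intestinal transcription factors at 21 of 40, microvillus and cytoskeleton genes at 20 of 40, and immediate-early genes at 18 of 36. None of the 31 marked genes of mitochondrial respiration and carriers had one, and nuclear receptors had 3 of 27.

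**Figure D5:**
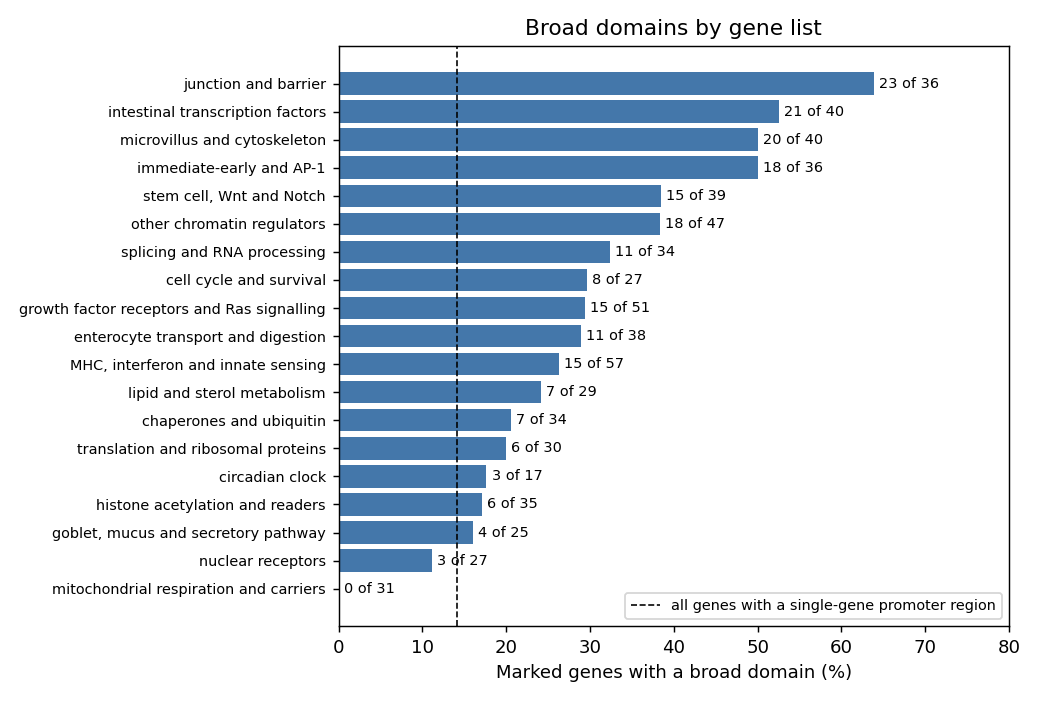
Percent of the marked genes of each list, those with any single-gene promoter region, that held a broad domain, with the counts beside the bars and a dashed line at the 14.1% of all marked genes. Junction and barrier genes stand highest at 63.9% and mitochondrial genes lowest at 0.

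Among the junction genes, Epcam, the epithelial adhesion molecule, spanned 729 and 3304 bp germ-free, 191 and 447 bp E. coli-monoassociated, and 2546 and 2810 bp conventional. Occludin (Ocln), a strand protein of the tight junction, spanned 584 and 2474 bp, 146 bp in the first E. coli-monoassociated library alone, and 195 and 1476 bp. At Epcam and Ocln both E. coli-monoassociated widths were below all others, with a missing one counted as 0. Nothing is read from this order, since width chose the domains and the E. coli lists were the shortest. Other members were the desmosome genes Dsg2, Dsc2, Dsp, Jup and Perp, and the adherens junction genes Cdh1, Ctnnb1, Ctnna1 and Ctnnd1. Among microvillus genes, Ezr encodes ezrin, which ties actin to the membrane, and spanned 815 and 4072, 543 and 615, and 1006 and 1650 bp. The list also held the brush border genes Eps8, Cdhr2, Myo7b, Myo1a, Anks4b, Ush1c and Slc9a3r1. Intestinal transcription factors with a domain included Isx, an intestinal homeobox factor that represses carotenoid uptake genes, at 688 and 4131 bp germ-free, 159 bp in the second E. coli-monoassociated library alone, and 482 and 2182 bp conventional. Elf3, Klf4, Hnf4a, Foxa1 and Cdx1 were further members.

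Of the immediate-early genes, Fosl2, an AP-1 subunit, spanned 350 and 4010, 146 and 252, and 1418 and 3153 bp. Zfp36l2, a relative of Zfp36, had 2484 bp in the second germ-free library alone, 452 bp in the first E. coli-monoassociated library alone, and 2208 and 2475 bp conventional. The first germ-free library thus stood apart from the second at both genes. Ier2, Jun, Fos, Junb, Btg2, Myc and Dusp6 were also members. For enterocyte transport the count was 11 of 38. There Abcb1a, a drug efflux pump gene, had 3094 bp in the second germ-free and 438 bp in the second conventional library and no other interval, and Slc34a2, a phosphate cotransporter gene, had 227 bp in the second germ-free and 243 and 2016 bp in the conventional libraries. Lipid genes had 7 of 29. Among them Apoa1 had 2196 bp in the second germ-free library and 160 and 1019 bp in the conventional libraries. Apoa4, another apolipoprotein gene, had 1925 bp in the second germ-free library and no interval in the conventional libraries. Neither gene had an interval in the first germ-free library or in either E. coli library. Goblet and secretory genes had 4 of 25, led by the membrane mucin gene Muc13 at 207 and 2635, 200 and none, and 310 and 2730 bp.

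Signalling lists lay between these. Stem cell, Wnt and Notch genes had a domain at 15 of 39, growth factor receptor and Ras genes at 15 of 51, and MHC, interferon and innate sensing genes at 15 of 57. Erbb3, a receptor of the EGF receptor family, spanned 405 and 3144, 401 and 230, and 458 and 1641 bp. Nfkb1, the NF-κB p105 subunit gene, spanned 813 and 2688, 387 and 207, and 351 and 1630 bp. Ifngr1, the ligand-binding chain of the interferon-γ receptor, spanned 1085 and 2114, 567 and 459, and 181 and 1940 bp, so the first conventional library was its lowest. The innate list also held B2m, Ciita, Pigr, Il22ra1, Stat6 and Nfkbia.

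Among genes of chromatin and general functions, other chromatin regulators had 18 of 47, splicing and RNA processing 11 of 34, cell cycle and survival 8 of 27, chaperones and ubiquitin 7 of 34, translation and ribosomal proteins 6 of 30, histone acetylation and readers 6 of 35, and the circadian clock 3 of 17. The acetyltransferase gene Ep300, whose product acetylates histones, spanned 1213 and 1665, 743 and 196, and 996 and 1695 bp. The clock gene Npas2 spanned 360 and 969 bp germ-free, had no E. coli-monoassociated interval, and had 1912 bp in the second conventional library alone.

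Wide intervals took in whole short genes. Coverage was taken from the widest interval of a domain over all libraries. At 21 domains this interval covered at least 80% of the listed transcript. It covered all of Cdx2 (6349 bp), Zfp36 (2444 bp), Apoa1 (1836 bp) and 2200002D01Rik (946 bp). Txnip, a thioredoxin-interacting protein gene, was covered to 89.1%, Junb to 86.4%, Cldn3 to 85.0%, Sgk1 to 82.7% and Krt19 to 80.1%. Such coverage could rest on a single library. Outside the second germ-free library, Sgk1 and Krt19 spanned at most 559 and 637 bp. Junb, 2200002D01Rik and the Klf5 domain upstream of its start were named after their values were seen. Short genes were not typical of the set: the median listed transcript was 29737 bp, against 23980.5 bp in the other regions, and the median domain covered 3.76% of it. In 17 genes 2 separate domains met the rule, as in Actb, Klf5, Junb, Jak2 and Casp8. At Klf5 they spanned 1380 to 332 bp before the start and from 134 bp before to 3016 bp after it.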

How the data were processed

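H3K9ac libraries of intestinal epithelial cells were analysed from 6 deposited peak lists, 2 per housing group as labelled. The submitters' processing notes name mm10, MACS2 2.1.1.20160309 and Bowtie 1.2.0; calling options and any input control are not stated in the sources used. Per the labels, libraries were read single-end at 50 bp. Each list held 1 library's peaks. The deposited files give pileup signal, −log10 p and −log10 q, and a ratio (fold enrichment), and gene annotation, per the file headers. In the second germ-free list the header has 14 names over 13 cells, and columns were assigned by their values. No summit position or pileup was read from that list, while the other 5 lists had both. Whether it was called in the same way as the others is not stated in the sources used. Between 2 and 40 mitochondrial lines per list were left out.

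Single-gene coding promoter intervals were merged over libraries at 1 bp (Python 3.11.15, pandas 2.3.3, NumPy 2.4.6), and the widest interval per region and library was taken. The scripts were tested on simulated data. Width and presence were described without a test. The downstream share was tested with exact permutation of libraries. Members, gene lists and named genes were chosen with earlier results of these data known. Named genes were the 12 widest domains, the 12 broad in most libraries, the 6 widest per presence pattern, up to 4 per gene list, and 3 on each side of the threshold. Genes outside this rule that are given values are marked in the text as chosen after their values were seen. Sequences came from RefSeq, and all 925 gene symbols matched its gene table. Alternatives changed the width threshold, peak significance, list length, joining and overlap, and left out libraries. Results for some genes that the rule names are not reported here.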

Additional observations from a re-analysis of the deposited data

How the results depend on the processing

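The counts depended on the settings. At a width of 800 bp there were 1531 domains, 435 that germ-free libraries shared and E. coli libraries lacked, and 427 of the like conventional kind; at 1500 bp the counts were 311, 69 and 83, with 82 in all 6 libraries. With each list held to its 868 most significant intervals they were 491, 35, 48 and 48. Joining intervals within 500 bp gave 1826, 500 and 475. Domains in all 6 libraries numbered 19 with −log10 q of 5 or more and 53 with a 200 bp overlap. Leaving out each library in turn gave 617 to 942 domains (617 without the second germ-free library), 134 to 507 for the germ-free pattern, 160 to 498 for the conventional pattern and 116 to 279 in all 6. A group with 1 library left was counted on that library alone. The germ-free pattern was 507 without the first and 134 without the second germ-free library and 408 without the first E. coli-monoassociated library. The conventional pattern was 160 without the second germ-free, 435 without the first E. coli-monoassociated, and 498 and 175 without the first and second conventional library. The count in all was 279 without the second E. coli-monoassociated library.

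The E. coli-monoassociated minus germ-free difference in downstream share changed sign to 0.474 at 800 bp, 6.23 with joined intervals, 1.14 with a 200 bp overlap, and 0.809 in domains called in all 6 libraries, an alternative added after seeing the data; the conventional difference was 2.00 with joined intervals. Without single libraries they ranged from -1.59 to 1.44 and from -2.91 to 1.78. No alternative passed the threshold, which the design cannot reach, and the cause was not tested. Permuting within replicate number (a replicate block) left the differences at -0.0995 and -0.696. The exact permutation gave p = 0.5 for each, the smallest it allows. Deviations of same-numbered libraries correlated at 0.089, -0.092 and -0.048 across domains. These domains were chosen by width in the same libraries, so the correlations cannot decide whether the numbers mark pairing or a shared batch. Counting any deposited interval as presence, also added later, gave 255, 267 and 168.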
